A study of Mus musculus with 18 samples.

Results

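Runx2, Sp7, Dlx3, Dlx5, Dlx6, Msx2 and Mef2c are transcription factors of the osteoblast lineage, and their RNA was followed through 6 groups of sorted mouse bone and marrow cells. These 7 genes were picked by name, out of 54446 gene IDs counted, by matching each ID without its version number to a mouse gene symbol. All 7 passed the filter on low counts, which left 15516 genes. Changes are given as counted and, where stated, again after a trend with transcript length had been removed.

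Cells descended from osterix-expressing progenitors were sorted at postnatal day 21 from knockout mice, labelled Conditional PTH1R KO, and from control mice, labelled Wild type. Osterix is the protein of Sp7, 1 of the 7 genes. Sorting gave 3 subsets per genotype with 3 libraries each, 18 libraries in all: GFP+ bone cells, GFP-Tm+ bone cells, and GFP-Tm+ bone marrow stromal cells. They are called GFP-positive bone, GFP-negative bone and marrow. The labels place the deletion in osteoprogenitors but name neither the promoter behind it, nor what drives GFP or Tm, and do not say if each library is its own animal. The p-values therefore measure the spread between libraries, which may be technical.

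Runx2 binds DNA through its runt domain, in a complex with Cbfb, and mice without it form no osteoblasts. Sp7 is a zinc-finger protein that acts after Runx2 in the same lineage. Dlx3, Dlx5 and Dlx6 are homeodomain proteins of the distal-less family that activate osteoblast genes. Msx2, from a related homeodomain family, often represses the same genes. Mef2c is a MADS-box factor that drives cartilage cells to enlarge and, in osteocytes, acts on an enhancer of Sost. The receptor Pth1r answers parathyroid hormone and its related protein, mainly through cAMP, and one known branch of that signal acts on the histone deacetylases that hold Mef2 proteins in check.

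The homeobox is a coding part that the 4 homeodomain genes share, and one where reads could be taken for a relative's. Its 180 coding bases are shown 5′ to 3′ for each gene, from GENCODE M21 transcripts of GRCm38. Capitals mark the bases that differ from Dlx5, which has none.
Dlx5: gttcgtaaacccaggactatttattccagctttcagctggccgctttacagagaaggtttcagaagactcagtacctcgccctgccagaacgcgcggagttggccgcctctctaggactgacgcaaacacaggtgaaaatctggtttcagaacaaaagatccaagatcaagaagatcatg
Dlx6: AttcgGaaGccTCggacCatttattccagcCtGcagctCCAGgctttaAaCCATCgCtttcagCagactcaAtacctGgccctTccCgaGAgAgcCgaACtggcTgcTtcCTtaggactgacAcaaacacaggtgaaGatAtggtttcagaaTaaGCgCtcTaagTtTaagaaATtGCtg
Dlx3: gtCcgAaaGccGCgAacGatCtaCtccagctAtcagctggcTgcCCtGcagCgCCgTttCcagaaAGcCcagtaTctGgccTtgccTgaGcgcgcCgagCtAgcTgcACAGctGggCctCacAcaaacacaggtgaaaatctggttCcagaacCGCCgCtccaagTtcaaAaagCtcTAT
Msx2: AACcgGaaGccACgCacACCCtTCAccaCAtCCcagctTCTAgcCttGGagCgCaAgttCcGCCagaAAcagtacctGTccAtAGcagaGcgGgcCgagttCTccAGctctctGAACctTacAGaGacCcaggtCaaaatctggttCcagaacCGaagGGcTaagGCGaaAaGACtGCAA
Of these 180 bases, 132 (73.3%) in Dlx6, 129 (71.7%) in Dlx3 and 106 (58.9%) in Msx2 matched Dlx5. Over their whole transcripts, the longest run of identical bases shared with Dlx5 was 18 for Dlx6, 23 for Dlx3 and 12 for Msx2. The 4 genes were counted as separate genes throughout.

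On mm10, Runx2 lies on chromosome 17 (44495987 to 44814797, minus strand), Sp7 on chromosome 15 (102356606 to 102367182, minus) and Dlx3 on chromosome 11 (95120119 to 95125296, plus). Dlx6 (chromosome 6, 6863334 to 6868568, plus) and Dlx5 (6877805 to 6882085, minus) face each other across a gap of 9236 bases. Msx2 (53466884 to 53473074, minus) and Mef2c (83504034 to 83667080, plus) are both on chromosome 13. Antisense genes share exon bases with Runx2 (519 bases, Runx2os1) and with Dlx6 (104 bases, Dlx6os2). Runx2os1 had at most 43 counts in a library and Dlx6os2 at most 6, against at least 682 for Runx2 and 15 for Dlx6, and no source used here gives the strand setting of the counting.

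Total counts ran between 16443595 and 27160257 per library, and a count of 0 allows up to 0.0966 to 0.216 CPM (the count scaled to the library's total after TMM normalisation), counting error only. Pth1r checked the labels, with knockout libraries all under the controls as counted: 2724 to 4036 against 4478 to 5032 CPM in GFP-positive bone, 1030 to 1397 against 1668 to 1910 CPM in GFP-negative bone, and 318 to 372 against 541 to 580 CPM in marrow. With the length trend removed, the groups overlapped in GFP-positive bone (3161 to 4540 against 4198 to 4765 CPM). They also overlapped in GFP-negative bone (1122 to 1484 against 1441 to 1654 CPM). Marrow stayed apart, at 346 to 403 against 482 to 526 CPM. The counts cover all exons of Pth1r, the deleted part or not. The labelled marrow cells carried the stromal markers: the 12 genes of that list, Cxcl12 and Lepr among them, summed to 45336 to 53619 CPM in knockout and 24968 to 34758 CPM in control marrow, and to at most 4929 CPM in any bone library. The 18 cartilage markers, Col2a1 and Acan among them, summed to 370614 to 409101 CPM in knockout and 133770 to 160727 CPM in control GFP-positive bone, so that the cells labelled bone cells held cartilage RNA in quantity. In bulk samples, fewer cells of a type and less RNA per cell cannot be told apart.

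Within one group, levels per kilobase of the longest transcript ordered the factors. In GFP-negative bone of the knockouts the mean level was 85.5 CPM per kilobase for Sp7, 58.8 for Dlx5, 33.8 for Mef2c, 22.8 for Dlx3, 14.5 for Runx2, 2.92 for Dlx6 and 0.533 for Msx2. In control GFP-negative bone the order was the same, with 79.2, 52.6, 31.97, 23.6, 7.94, 2.88 and 0.409 CPM per kilobase. The order depends on the length used. By the merged exon lengths of the files Mef2c fell below Dlx3, at 13.5 against 22.8 in knockout and 12.8 against 23.6 in control GFP-negative bone. Msx2 had 5 to 83 counts in a library, and Dlx6 had 15 to 140. Those 2 genes carry the widest errors of the set.

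**Figure D1:**
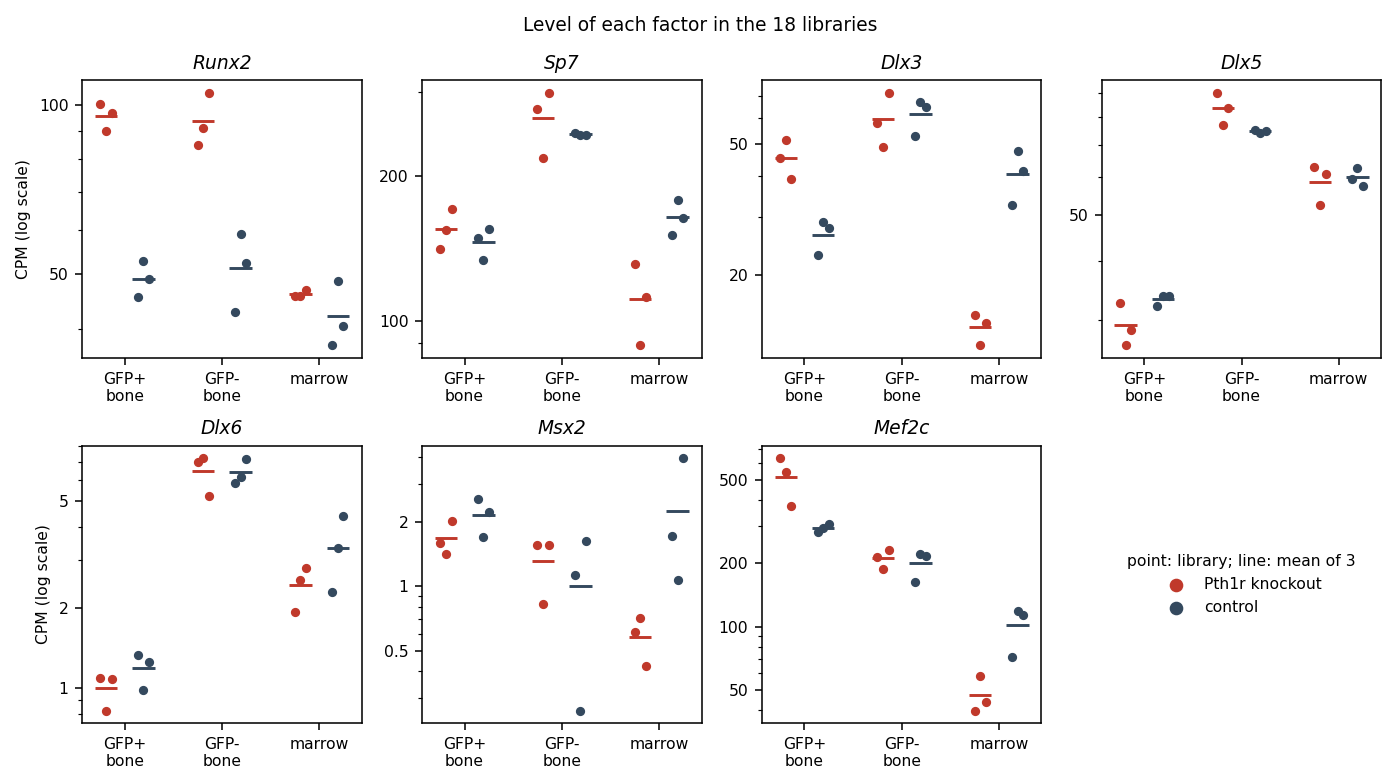
Level of each of the 7 factors in the 18 libraries, in CPM on a log axis, with knockout libraries left of control libraries in each subset; a point is 1 library and a line the mean of 3. Runx2 stood higher in both knockout bone groups than in every other group, Dlx3 was lowest in knockout marrow, and Dlx5 and Dlx6 were lowest in GFP-positive bone of both genotypes.

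The knockout comparisons carry a trend with transcript length. Over the 15511 genes whose transcript length is known, log2 fold change of knockout over control and longest transcript had a Spearman correlation of 0.44 in GFP-positive bone, 0.44 in GFP-negative bone and 0.41 in marrow. These are correlations across genes, which are not independent replicates, so no p is given. Genes whose longest transcript was near 1298 bases had a median log2 fold change of -0.49, -0.53 and -0.44 in those 3 subsets, and genes near 6095 bases one of 0.90, 0.68 and 0.64. The 7 factors sit at both ends: the longest transcripts of Runx2 and Mef2c have 6463 and 6277 bases, and that of Dlx5 has 1423. Between them lie Sp7 (3097), Dlx3 (2607), Msx2 (2453) and Dlx6 (2216). A smooth curve of each library's deviation on length was then taken out, which brought the 3 correlations to 0.03, 0.02 and 0.02. Among the longest genes some of the trend remained: the median after removal was 0.15, 0.09 and 0.06 near 6095 bases and 0.35, 0.19 and 0.15 near 7217 bases, in the same order of subsets. At the length of Runx2 this took 0.81 off the log2 fold change in GFP-positive bone, 0.66 in GFP-negative bone and 0.62 in marrow. For Mef2c the amounts were 0.77, 0.64 and 0.60. For Dlx5 the removed trend was -0.43, -0.48 and -0.39, so its fold changes moved up. Sp7 moved by 0.14 at most.

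**Figure D2:**
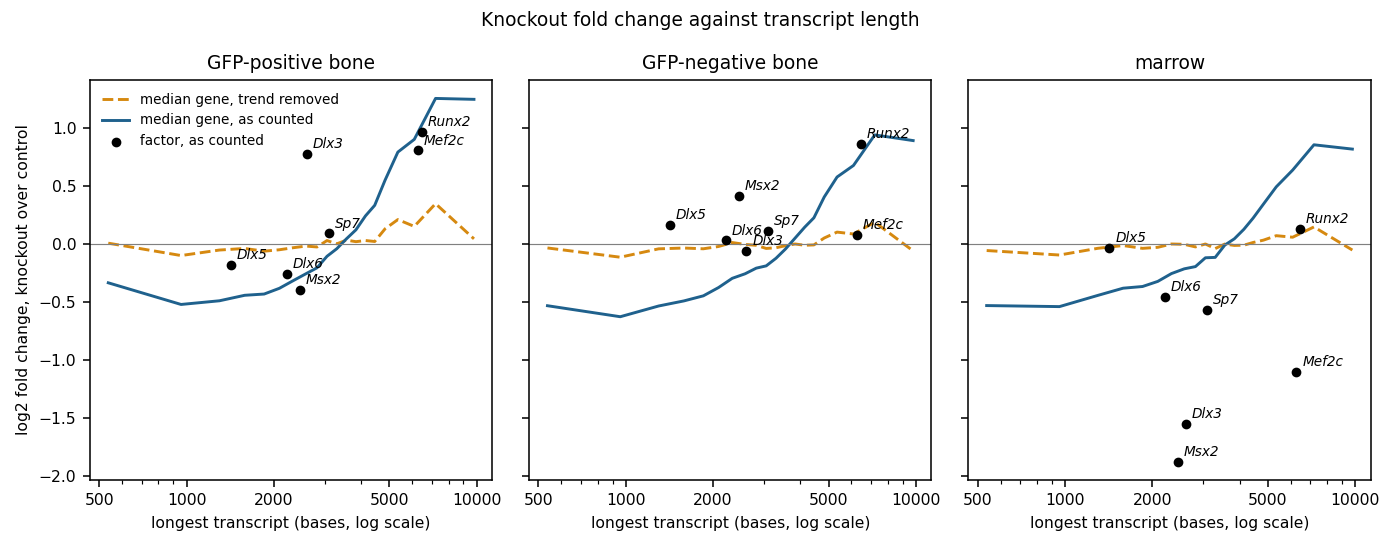
Log2 fold change of knockout over control (vertical axis) against the length of the longest transcript in bases (log axis) in the 3 subsets. Lines join the median gene of 20 length classes, as counted and with the trend removed, and points are the 7 factors as counted; as counted, the medians climb with length in all 3 subsets, and Mef2c lies 1.70 below the fitted trend in marrow.

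In bone, Runx2 stood higher in the knockouts as counted, and the change was not past the threshold once the trend was removed. GFP-positive bone had 100.4, 89.9 and 96.7 CPM in the knockout libraries, against 45.5, 52.8 and 48.9 CPM in the control libraries. The groups did not overlap, and Runx2 rose 1.95-fold (log2 fold change 0.96 ± 0.12, adjusted p = 1.88e-06, edgeR quasi-likelihood test with Benjamini-Hochberg adjustment over all genes, as for all adjusted p below). After removal of the trend the levels were 79.3 ± 6.92 CPM in knockout and 71.3 ± 8.61 CPM in control libraries, which overlapped, and the log2 fold change was 0.15 ± 0.12, adjusted p = 0.334. GFP-negative bone had 84.7, 90.9 and 105 CPM in the knockout libraries, against 42.8, 58.9 and 52.3 CPM in the control libraries. These groups did not overlap either, and the rise was 1.82-fold (0.86 ± 0.12, adjusted p = 9.47e-06), against 0.20 ± 0.12, adjusted p = 0.230 with the trend removed. Lengths of the merged exons, as the files give them, in place of the longest transcript left both calls standing, at 0.36 (adjusted p = 0.0214) in GFP-positive and 0.38 (adjusted p = 0.0193) in GFP-negative bone.

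In marrow the order was the other way round: Runx2 did not pass as counted and was lower in the knockouts after the trend was removed. Marrow had 45.7, 45.8 and 46.9 CPM in the knockout libraries, against 37.4, 48.7 and 40.5 CPM in the control libraries. The 3 knockout values lay inside the range of the controls, with a log2 fold change of 0.13 ± 0.12, adjusted p = 0.401. Without the trend the levels were 33.9 ± 0.478 CPM in knockout and 47.7 ± 6.19 CPM in control libraries, with no overlap, and Runx2 fell (-0.49 ± 0.12, adjusted p = 0.00393). By the file lengths the value was -0.33 (adjusted p = 0.0407).

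Sp7 fell in knockout marrow by either reading and passed in neither bone subset. The cells were chosen as osterix-derived, that is by a past or present activity of this gene. Marrow had 132, 88.8 and 112 CPM in the knockout libraries, against 151, 179 and 164 CPM in the control libraries. Every knockout library was below every control library, and the level was 1.48-fold lower (-0.57 ± 0.13, adjusted p = 0.00133; -0.46 ± 0.13, adjusted p = 0.0100 with the trend removed). In GFP-positive bone the levels were 156 ± 15.3 CPM in knockout and 146 ± 11.3 CPM in control libraries (SD, n = 3 each), and the groups overlapped (0.09 ± 0.13, adjusted p = 0.591; 0.21 ± 0.13, adjusted p = 0.216 with the trend removed). In GFP-negative bone they were 265 ± 41.1 CPM in knockout and 245 ± 1.45 CPM in control libraries, also overlapping (0.11 ± 0.13, adjusted p = 0.518; 0.25 ± 0.13, adjusted p = 0.139 with the trend removed).

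Dlx3 moved in opposite directions in marrow and in GFP-positive bone, and the trend changed neither call. Marrow had 15.03, 12.2 and 14.2 CPM in the knockout libraries, against 32.6, 47.6 and 41.2 CPM in the control libraries. The groups were far apart, and Dlx3 was 2.93-fold lower in the knockouts (-1.55 ± 0.17, adjusted p = 6.01e-07; -1.34 ± 0.17, adjusted p = 6.68e-06 with the trend removed). GFP-positive bone had 45.3, 51.3 and 39.1 CPM in the knockout libraries, against 22.9, 28.9 and 27.7 CPM in the control libraries. There all 3 knockout libraries were above the controls, and the level was 1.71-fold higher (0.78 ± 0.16, adjusted p = 4.99e-04; 1.01 ± 0.17, adjusted p = 7.95e-05). GFP-negative bone had 57.8, 48.98 and 71.5 CPM in the knockout libraries, against 52.8, 67.3 and 64.8 CPM in the control libraries, which overlapped (-0.06 ± 0.16, adjusted p = 0.800; 0.19 ± 0.16, adjusted p = 0.377).

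Dlx5 passed in no subset as counted under TMM with all libraries fitted together. Once the trend with the longest transcript was removed it passed in each, as a rise. GFP-negative bone had 90.1, 77.2 and 83.8 CPM in the knockout libraries, against 75.3, 74.1 and 75.1 CPM in the control libraries. The knockout libraries were all above the controls by a small margin, at 0.16 ± 0.09, adjusted p = 0.172. As counted this value passed under other settings: 0.26 with RLE size factors (adjusted p = 0.0198) and 0.26 by DESeq2 (adjusted p = 0.00823). With the compared libraries alone it was 0.23 and also passed (adjusted p = 0.0463). Under library totals it was -0.08, where the median gene shifted by -0.23. Once the trend was taken out the levels were 95.2 ± 4.99 CPM in knockout and 61.01 ± 0.470 CPM in control libraries, and the value was 0.64 ± 0.08, adjusted p = 6.38e-06. Marrow had 62.9, 52.4 and 60.7 CPM in the knockout libraries, against 59.6, 62.7 and 57.5 CPM in the control libraries, which overlapped (-0.03 ± 0.09, adjusted p = 0.817), against 0.36 ± 0.08, adjusted p = 0.00155 with the trend removed. GFP-positive bone had 32.7, 26.6 and 28.6 CPM in the knockout libraries, against 32.2, 33.8 and 33.8 CPM in the control libraries, where 1 knockout library lay inside the control range (-0.18 ± 0.10, adjusted p = 0.138), against 0.25 ± 0.09, adjusted p = 0.0263. In marrow and GFP-positive bone the sign differed between the readings. By the file lengths the rise in GFP-positive bone was 0.15 and did not pass (adjusted p = 0.19), while the other 2 did.

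Dlx6, the neighbour of Dlx5, passed in no subset by either reading. Its levels were 0.9995 ± 0.152 CPM in knockout and 1.19 ± 0.180 CPM in control libraries in GFP-positive bone, 6.47 ± 1.08 CPM in knockout and 6.38 ± 0.711 CPM in control libraries in GFP-negative bone and 2.43 ± 0.453 CPM in knockout and 3.33 ± 1.05 CPM in control libraries in marrow (SD, n = 3 each). Knockout and control libraries overlapped in all 3 subsets. The log2 fold changes were -0.26 ± 0.39, 0.03 ± 0.22 and -0.45 ± 0.26 as counted (adjusted p = 0.618, 0.925 and 0.155). Without marrow replicate 1 of the controls the marrow value was -0.68 and passed (adjusted p = 0.0397).

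Msx2, the homeodomain factor with repressive activity, fell in knockout marrow at very low counts. Marrow had 0.612, 0.709 and 0.422 CPM in the knockout libraries, against 1.72, 1.07 and 3.95 CPM in the control libraries. The groups did not overlap, but the control values spread widely, with replicate 3 far above the other two. The level was 3.66-fold lower (-1.87 ± 0.50, adjusted p = 0.00472; -1.64 ± 0.51, adjusted p = 0.0158 with the trend removed). Without control replicate 3 it was -1.24, with an adjusted p of 0.0477. The smooth muscle markers moved with it: the 9 genes summed to 263 to 319 CPM in knockout and 904 to 2851 CPM in control marrow. Of these 9, 8 were called lower and 0 higher, where 24.8% of all genes tested were called lower and 23.1% higher. Their part in the Msx2 value was not tested. In GFP-positive bone Msx2 was at 1.67 ± 0.311 CPM in knockout and 2.15 ± 0.428 CPM in control libraries, and in GFP-negative bone at 1.31 ± 0.419 CPM in knockout and 1.003 ± 0.686 CPM in control libraries. Both overlapped, with log2 fold changes of -0.39 ± 0.44, adjusted p = 0.484 and 0.41 ± 0.58, adjusted p = 0.600.

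Mef2c fell in knockout marrow and rose in knockout GFP-positive bone as counted. Marrow had 39.9, 58.3 and 43.8 CPM in the knockout libraries, against 71.9, 119 and 113 CPM in the control libraries. All knockout libraries were below all controls, a 2.15-fold lower level (-1.10 ± 0.21, adjusted p = 2.99e-04), and removal of the trend made the fall larger (-1.70 ± 0.21, adjusted p = 8.06e-06). GFP-positive bone had 632, 544 and 374 CPM in the knockout libraries, against 283, 296 and 309 CPM in the control libraries. Every knockout library exceeded the controls, replicate 3 by the least, and the level was 1.75-fold higher (0.81 ± 0.20, adjusted p = 0.00251). In the second reading the 2 groups overlapped, at 433 ± 115 CPM in knockout and 424 ± 32.3 CPM in control libraries (0.03 ± 0.20, adjusted p = 0.919). GFP-negative bone had 215, 188 and 233 CPM in the knockout libraries, against 163, 221 and 217 CPM in the control libraries, which overlapped as counted (0.08 ± 0.20, adjusted p = 0.779), while with the trend removed Mef2c was lower in the knockouts (-0.56 ± 0.20, adjusted p = 0.0373).

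Counted over the 7 factors, marrow had 4 lower and 0 higher in the knockouts as counted, where 24.8% of all genes tested were called lower, 23.1% higher and 47.9% in either direction. Sp7, Dlx3, Msx2 and Mef2c made up the 4. GFP-positive bone had 3 higher and 0 lower (Runx2, Dlx3 and Mef2c), where 26% of all genes were called higher, 25.3% lower and 51.3% in either direction. GFP-negative bone had 1 higher (Runx2) and 0 lower, where 21.5% were called higher, 25.7% lower and 47.1% in either direction. With so large a share of all genes called, these counts say little about the factors as a set. The median log2 fold change of the factors was 0.09 in GFP-positive bone, 0.11 in GFP-negative bone and -0.57 in marrow, beside 0.03, -0.07 and -0.04 over all genes tested. In the second reading, 2 were higher and 0 lower in GFP-positive bone, where 20.5% of all genes were called higher and 21.9% lower (42.3% in all). GFP-negative bone had 1 higher and 1 lower, where 17.4% were called higher and 20.4% lower (37.7% in all). Marrow had 1 higher and 5 lower, where 19% were called higher and 20.6% lower (39.5% in all). Of the 21 tests of a factor against control, 8 passed as counted and 10 with the trend removed, and 5 of these were the same calls in the same direction: Sp7, Dlx3, Msx2 and Mef2c in marrow and Dlx3 in GFP-positive bone. Removal of the trend ended 3 calls and gained 5, and the sign differed in 6 of the 21.

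**Figure D3:**
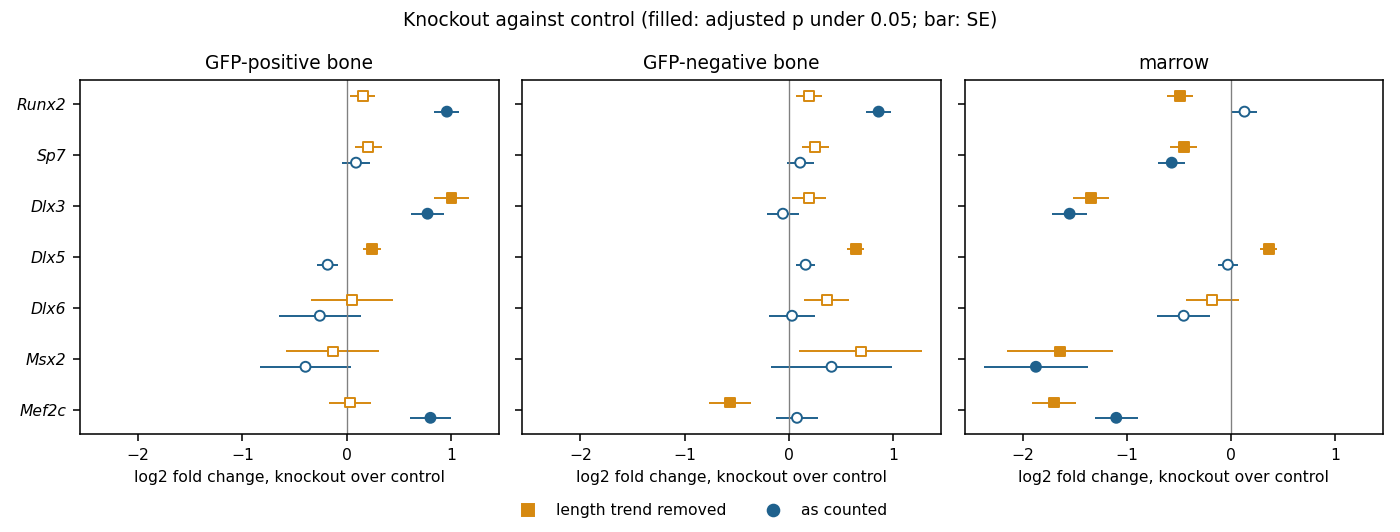
Log2 fold change of knockout over control with its SE (horizontal axis) for the 7 factors in the 3 subsets, as counted (circles) and with the length trend removed (squares); filled symbols passed an adjusted p of 0.05. Runx2 and Mef2c shift left and Dlx5 shifts right in every subset, while Dlx3 stays filled and on its side of 0 in marrow and GFP-positive bone.

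The length trend ran the same way in the 3 subsets. Much of it therefore drops out when the knockout effect of one subset is set against that of another. The Spearman correlation of such a difference with length was between 0.05 and 0.09. The trend was steepest in GFP-positive bone: near 7217 bases the median log2 fold change as counted was 1.25 there, 0.94 in GFP-negative bone and 0.85 in marrow. For GFP-positive bone minus marrow the removed trend was 0.18 for Runx2 and 0.18 for Mef2c. Set against each other in this way, Runx2, Sp7, Dlx3 and Mef2c had a higher knockout effect in bone than in marrow by either reading. For GFP-negative bone minus marrow the difference of log2 fold changes was 0.73 ± 0.17, adjusted p = 0.0107 for Runx2, 0.68 ± 0.18, adjusted p = 0.0267 for Sp7, 1.49 ± 0.23, adjusted p = 3.69e-04 for Dlx3 and 1.18 ± 0.29, adjusted p = 0.0162 for Mef2c. In the second reading they were 0.69 ± 0.17, 0.71 ± 0.19, 1.53 ± 0.23 and 1.14 ± 0.29, with adjusted p = 0.0193, 0.0227, 3.78e-04 and 0.0212. So 4 of 7 were higher, where 4.49% of all genes were called higher and 7.79% in either direction (4.89% and 8.02% with the trend removed).

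GFP-positive bone minus marrow gave the same 4 genes. The differences were 0.83 ± 0.17, adjusted p = 0.00225 for Runx2, 0.66 ± 0.18, adjusted p = 0.0170 for Sp7, 2.33 ± 0.23, adjusted p = 2.51e-06 for Dlx3 and 1.91 ± 0.29, adjusted p = 2.28e-04 for Mef2c. Freed of the trend they were 0.65 ± 0.17, 0.67 ± 0.19, 2.35 ± 0.24 and 1.73 ± 0.29 (adjusted p = 0.0141, 0.0176, 3.67e-06 and 6.18e-04). Over all genes 10.8% were called higher and 18.4% in either direction (9.9% and 18.8% with the trend removed). The 2 comparisons share the marrow libraries and are not independent of each other. Dlx5 and Dlx6 passed in neither: their differences were 0.19 ± 0.13 and 0.48 ± 0.34 for GFP-negative bone minus marrow, and -0.15 ± 0.14 and 0.20 ± 0.47 for GFP-positive bone minus marrow. Msx2 had the widest error, at 2.28 ± 0.78, adjusted p = 0.0833 for GFP-negative bone and 1.48 ± 0.68, adjusted p = 0.149 for GFP-positive bone, and with same-number libraries of a genotype kept as a block the first was 2.26 and passed (adjusted p = 0.0326).

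Between the 2 bone subsets, Dlx3 alone of the 7 passed under TMM in edgeR, with a difference of 0.83 ± 0.23, adjusted p = 0.0328, and 0.81 ± 0.23, adjusted p = 0.0437 with the trend removed. Dlx5 was at -0.34 ± 0.14, adjusted p = 0.160, and -0.40 ± 0.12, adjusted p = 0.0545 with the trend removed, and passed by DESeq2 (-0.42, adjusted p = 0.0206) and with the replicate block and the trend removed (-0.40, adjusted p = 0.0276). The other differences were 0.10 ± 0.17 for Runx2, -0.02 ± 0.18 for Sp7, -0.29 ± 0.45 for Dlx6, -0.80 ± 0.73 for Msx2 and 0.73 ± 0.28 for Mef2c (adjusted p = 0.811, 0.978, 0.794, 0.607 and 0.151). Over all genes 4.98% were called higher and 6.08% in either direction (4.22% and 5.81% with the trend removed). The Dlx3 call was not stable. It ended when any 1 of 7 of the 12 libraries was left out, namely replicates 1 and 2 of knockout GFP-positive bone, replicates 1 and 2 of knockout GFP-negative bone, replicate 1 of control GFP-positive bone and replicates 2 and 3 of control GFP-negative bone. The differences ran from 0.71 to 0.99 over the 12 and the highest adjusted p was 0.0926. It also ended with RLE size factors, at 0.76 (adjusted p = 0.0540). The Sp7 difference between GFP-negative bone and marrow also ended with 7 of 12 libraries left out, each of these in turn: replicates 1 and 3 of knockout GFP-negative bone, replicate 2 of knockout marrow, replicates 1, 2 and 3 of control GFP-negative bone and replicate 2 of control marrow. Its values ran from 0.54 to 0.82, with an adjusted p of up to 0.0749. Those of Runx2, Dlx3 and Mef2c between either bone subset and marrow passed with every library left out in turn. Under scaling by library totals (median shift over all genes -0.37 for GFP-negative and -0.52 for GFP-positive bone minus marrow), Runx2 was at 0.35 and 0.31 (adjusted p = 0.119 and 0.141) and Sp7 at 0.28 and 0.14 (adjusted p = 0.241 and 0.574), so that neither passed.

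**Figure D4:**
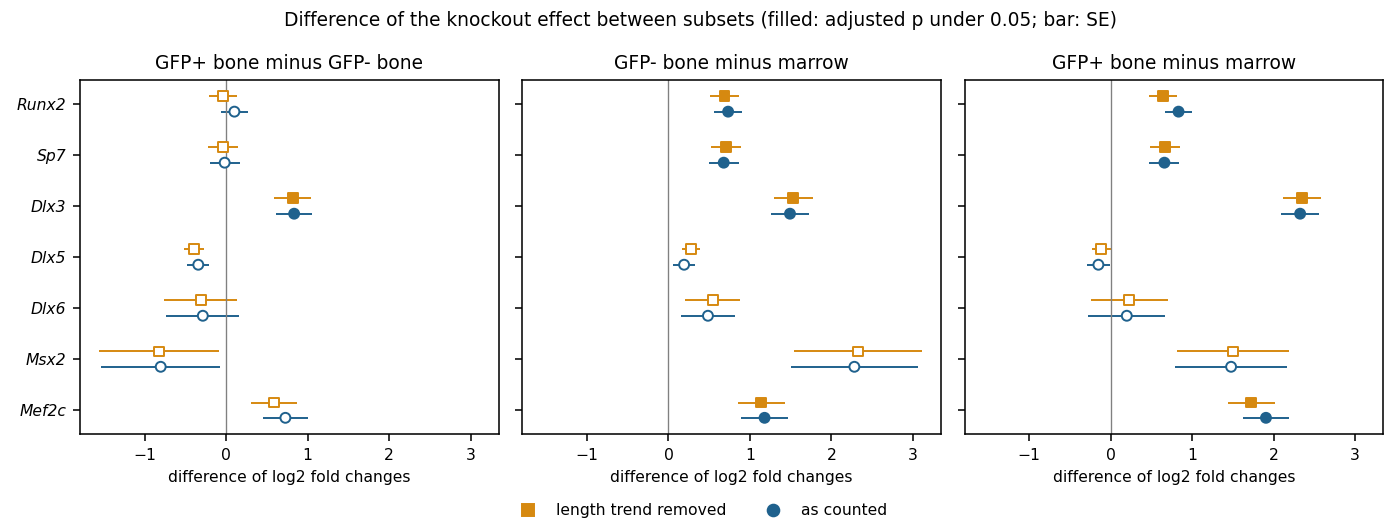
Difference of the knockout log2 fold change between 2 subsets, with its SE (horizontal axis), for the 7 factors as counted (circles) and with the length trend removed (squares); filled symbols passed an adjusted p of 0.05. Runx2, Sp7, Dlx3 and Mef2c pass in both comparisons of bone with marrow by both readings, Runx2 in GFP-positive bone minus marrow at 0.83 ± 0.17 as counted and 0.65 ± 0.17 with the trend removed.

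Subsets were then compared within each genotype, as counted unless removal of the trend is named. GFP-positive bone was the subset with most Mef2c and least Dlx5 and Dlx6. In the knockouts Mef2c was 10.9-fold higher in GFP-positive bone than in marrow (3.45 ± 0.22, adjusted p = 2.57e-10) and 2.44-fold higher than in GFP-negative bone (1.29 ± 0.20, adjusted p = 4.18e-05). In the controls these ratios were 2.91 (1.54 ± 0.20, adjusted p = 3.98e-06) and 1.47 (0.56 ± 0.20, adjusted p = 0.0332). GFP-negative bone exceeded marrow by 2.16 ± 0.21, adjusted p = 1.86e-07 in knockouts and by 0.98 ± 0.20, adjusted p = 8.89e-04 in controls. The control ratio between the bone subsets, as counted, no longer passed with any 1 of 5 libraries left out, that is any library of control GFP-positive bone or replicate 1 or 3 of control GFP-negative bone (0.43 to 0.63 over all 6, adjusted p of up to 0.145). With the trend removed and all libraries kept, that control value was 0.80 ± 0.20 (adjusted p = 0.00398). By the file lengths it was 0.85 (adjusted p = 0.00128). The cartilage markers moved with Mef2c across subsets: their summed level was highest in GFP-positive bone, the values given above, then 33455 to 43638 CPM in knockout and 40096 to 54261 CPM in control GFP-negative bone, and 3382 to 4144 CPM in knockout and 2587 to 3723 CPM in control marrow. Their part in the Mef2c levels was not tested.

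Dlx5 and Dlx6 were lowest in GFP-positive bone and highest in GFP-negative bone, in both genotypes. Between GFP-positive and GFP-negative bone, Dlx6 was 6.54-fold lower in the knockouts (-2.71 ± 0.30, adjusted p = 4.06e-07) and 5.36-fold lower in the controls (-2.42 ± 0.28, adjusted p = 9.43e-07). Dlx5 was 2.85-fold lower in the knockouts (-1.51 ± 0.10, adjusted p = 2.37e-10) and 2.25-fold lower in the controls (-1.17 ± 0.10, adjusted p = 1.37e-08). Against marrow, GFP-positive bone was at -1.26 ± 0.34 in knockouts and -1.46 ± 0.30 in controls for Dlx6, and at -0.9999 ± 0.10 and -0.85 ± 0.10 for Dlx5 (adjusted p = 0.00305, 2.78e-04, 3.26e-08 and 2.98e-07). No library of GFP-positive bone reached the level of any library of GFP-negative bone or marrow for either gene. GFP-negative bone also exceeded marrow for both: Dlx6 by 1.45 ± 0.24 in knockouts and 0.96 ± 0.23 in controls, and Dlx5 by 0.51 ± 0.09 in knockouts and 0.32 ± 0.09 in controls, on the log2 scale (adjusted p = 5.58e-05, 0.00286, 1.72e-04 and 0.0112). The control value of Dlx5 did not pass with the trend removed (0.14 ± 0.08, adjusted p = 0.183).

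Sp7 was highest in GFP-negative bone of both genotypes. GFP-positive bone was below it by 1.70-fold in knockouts (-0.77 ± 0.13, adjusted p = 6.78e-05) and 1.68-fold in controls (-0.75 ± 0.13, adjusted p = 1.31e-04). Against marrow, GFP-negative bone was 2.39-fold higher in knockouts (1.26 ± 0.13, adjusted p = 1.99e-07) and 1.49-fold higher in controls (0.58 ± 0.13, adjusted p = 0.00151). GFP-positive bone and marrow differed past the threshold in knockouts (0.49 ± 0.13, adjusted p = 0.00280) and did not pass in controls (-0.17 ± 0.13, adjusted p = 0.260).

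Dlx3 had a different place for GFP-positive bone in the 2 genotypes. In knockouts it was 3.28-fold higher there than in marrow (1.71 ± 0.17, adjusted p = 3.56e-08), and in controls 1.53-fold lower (-0.61 ± 0.16, adjusted p = 0.00278), which is the difference of 2.33 tested above. Against GFP-negative bone it was lower in controls (-1.22 ± 0.16, adjusted p = 5.94e-06) and, narrowly, in knockouts (-0.39 ± 0.16, adjusted p = 0.0489), where the libraries overlapped. The knockout call ended with the trend removed (-0.29 ± 0.16, adjusted p = 0.145) and without replicate 1 or 3 of either knockout bone group (-0.51 to -0.22 over all 6, adjusted p of up to 0.299). GFP-negative bone exceeded marrow by 2.10 ± 0.17, adjusted p = 5.59e-09 in knockouts and by 0.61 ± 0.16, adjusted p = 0.00467 in controls.

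Runx2 did not differ past the threshold between the bone subsets of either genotype (0.03 ± 0.12, adjusted p = 0.829 in knockouts and -0.07 ± 0.12, adjusted p = 0.701 in controls). Against marrow, knockout Runx2 was 2.07-fold higher in GFP-positive bone and 2.03-fold higher in GFP-negative bone (1.05 ± 0.12, adjusted p = 2.50e-07, and 1.02 ± 0.12, adjusted p = 9.18e-07). In controls the same comparisons did not pass as counted (0.22 ± 0.12, adjusted p = 0.120, and 0.29 ± 0.12, adjusted p = 0.0698) and passed with the trend removed (0.58 ± 0.12, adjusted p = 5.04e-04, and 0.39 ± 0.12, adjusted p = 0.0176). With same-number libraries as a block, control GFP-negative bone against marrow also passed as counted, at 0.28 (adjusted p = 0.0181).

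Msx2 was higher in GFP-positive bone than in marrow in knockouts (1.46 ± 0.56, adjusted p = 0.0273), a call that ended without replicate 1 or 3 of either group (1.30 to 1.60 over all 6, adjusted p of up to 0.0716). Its other subset comparisons did not pass. In knockouts they were 0.34 ± 0.51, adjusted p = 0.612 for GFP-positive over GFP-negative bone and 1.12 ± 0.59, adjusted p = 0.130 for GFP-negative bone over marrow. In controls they were -0.02 ± 0.40, adjusted p = 0.966 for GFP-positive bone over marrow, 1.14 ± 0.50, adjusted p = 0.0792 for GFP-positive over GFP-negative bone, and -1.17 ± 0.50, adjusted p = 0.0743 for GFP-negative bone over marrow. The last 2 passed with same-number libraries as a block, at 1.19 (adjusted p = 0.028) and -1.15 (adjusted p = 0.034). Without control marrow replicate 3, whose Msx2 level was 3.95 CPM, GFP-negative bone over marrow was -0.54 and GFP-positive bone over marrow 0.60.

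Counted over the 7 factors, knockout GFP-positive bone had 1 higher and 4 lower than GFP-negative bone, where 25.5% of all genes were called higher and 24.9% lower (50.4% in all). Knockout GFP-negative bone had 6 higher and 0 lower than marrow, where 22.6% were called higher and 24.3% lower (46.9% in all). Knockout GFP-positive bone had 5 higher and 2 lower than marrow, where 32.6% were called higher and 34.7% lower (67.3% in all). In controls GFP-positive bone had 1 higher and 4 lower than GFP-negative bone, where 18.2% were called higher and 21.8% lower (40% in all). Control GFP-negative bone had 5 higher and 0 lower than marrow, where 21.1% were called higher and 18.2% lower (39.3% in all). Control GFP-positive bone had 1 higher and 3 lower than marrow, where 29.8% were called higher and 33% lower (62.8% in all). Of these 42 tests, 32 passed as counted, 32 with the trend removed, and 30 of them in both readings with the same direction.

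**Figure D5:**
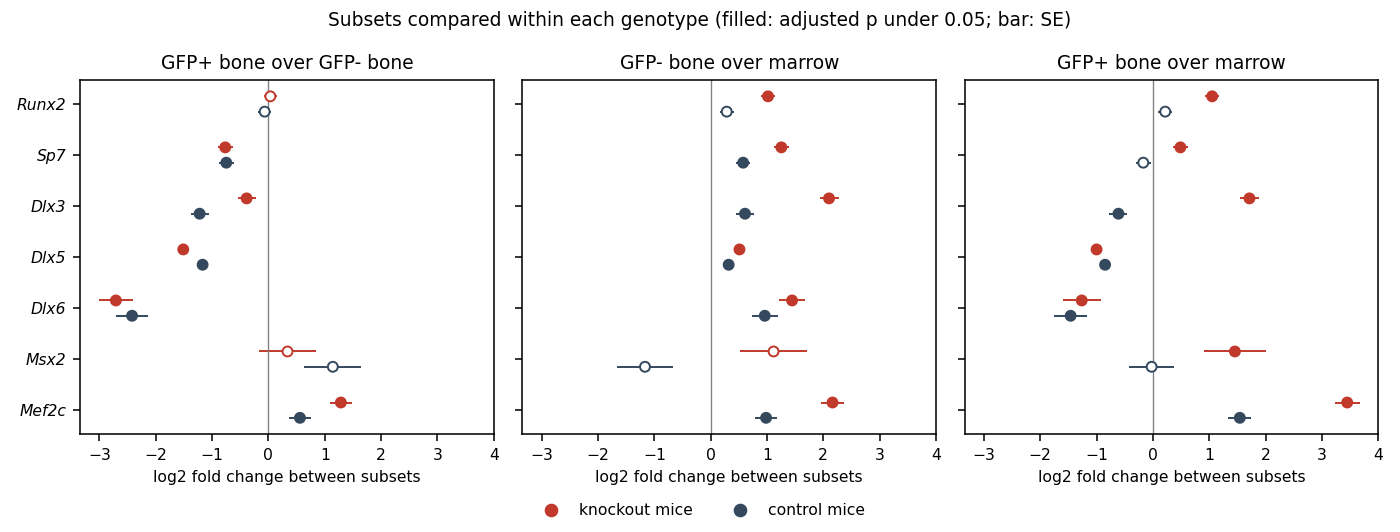
Log2 fold change between 2 subsets of one genotype with its SE (horizontal axis) for the 7 factors as counted, with knockout mice above control mice for each gene; filled symbols passed an adjusted p of 0.05. Dlx5 and Dlx6 lie left of 0 and Mef2c right of 0 in both comparisons of GFP-positive bone, and Dlx3 in GFP-positive bone over marrow lies right of 0 in knockout and left of 0 in control mice.

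Of 20 genes that these factors are known to act on in bone, 13 were lower and 3 higher in knockout marrow (median log2 fold change -1.12, and -0.04 over all genes), where 24.8% of all genes tested were called lower and 23.1% higher. Alpl, the phosphatase of mineralising cells, was at 516 ± 63.1 CPM in knockout and 1389 ± 195 CPM in control libraries (-1.43 ± 0.11, adjusted p = 1.80e-08). Sparc, a matrix glycoprotein, was at 10026 ± 1498 CPM in knockout and 27175 ± 4875 CPM in control libraries (-1.44 ± 0.15, adjusted p = 4.34e-07). Bglap, which encodes osteocalcin, was at 463 ± 102 CPM in knockout and 3030.1 ± 1220.3 CPM in control libraries (-2.71 ± 0.28, adjusted p = 1.37e-06); its reads can be shared with its near copies Bglap2 and Bglap3, so the split among them is uncertain. With the trend removed 13 were lower and 2 higher (20.6% and 19% of all genes).

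In bone the same list had 9 higher and 2 lower in GFP-positive bone (median 0.58), where 26% of all genes were called higher and 25.3% lower. It had 9 higher and 2 lower in GFP-negative bone (median 0.49), where 21.5% were called higher and 25.7% lower. With the trend removed it had 8 and 0 in GFP-positive bone (median 0.52; 20.5% and 21.9% of all genes) and 9 and 2 in GFP-negative bone (median 0.38; 17.4% and 20.4%). Phex, an endopeptidase of osteoblasts and osteocytes that restrains Fgf23, had the smallest p in both: 81.4 ± 14.7 CPM in knockout and 11.4 ± 0.738 CPM in control libraries in GFP-positive bone (2.84 ± 0.15, adjusted p = 9.06e-11; 2.06 ± 0.13, adjusted p = 1.70e-09 with the trend removed) and 118 ± 3.92 CPM in knockout and 44.5 ± 0.851 CPM in control libraries in GFP-negative bone (1.41 ± 0.13, adjusted p = 1.10e-07; 0.77 ± 0.12, adjusted p = 6.95e-05). Alpl rose in GFP-positive bone (0.63 ± 0.11, adjusted p = 8.58e-05; 0.88 ± 0.11, adjusted p = 3.75e-06). The difference of the knockout effect between GFP-positive bone and marrow was 2.06 ± 0.16, adjusted p = 2.60e-07 for Alpl and 1.78 ± 0.21, adjusted p = 1.49e-05 for Sparc, and 14 of the 20 targets were higher and 0 lower in it (median 1.73, and 0.05 over all genes), where 10.8% of all genes were called higher and 18.4% in either direction. For GFP-negative bone minus marrow 13 were higher and 1 lower (median 1.56, and -0.04 over all genes), where 4.49% were called higher and 7.79% in either direction.

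Other markers moved with these results, and 4 of the target genes (Sost, Dmp1, Mepe and Phex) are osteocyte markers too. The numbers called below are without removal of the trend unless said otherwise. The shares of all genes called higher and lower, with which these numbers compare, were 26% and 25.3% in GFP-positive bone, 21.5% and 25.7% in GFP-negative bone, and 23.1% and 24.8% in marrow. The 12 stromal markers had 10 higher and 0 lower in knockout marrow (median 1.19), where Sp7, Dlx3, Msx2, Mef2c and 13 of 20 targets were lower. In bone they had 10 higher and 0 lower in GFP-positive bone, at a summed level of 792 to 1044 CPM in knockout and 365 to 402 CPM in control libraries, and 11 and 0 in GFP-negative bone, at 4650.0 to 4929 CPM in knockout and 1395 to 1878 CPM in control libraries.

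Of 10 osteocyte markers 9 were tested. GFP-positive bone had 5 higher and 0 lower, with a summed level of 640.3 to 890.2 CPM in knockout and 313 to 345 CPM in control libraries. GFP-negative bone had 3 higher and 3 lower, at 1653 to 1851 CPM in knockout and 983 to 1407 CPM in control libraries. With the trend removed Mepe was also called higher in GFP-positive bone (2.13 ± 0.75, adjusted p = 0.0319). Dmp1 was then also called higher in GFP-negative bone (0.82 ± 0.30, adjusted p = 0.0424). In marrow 1 (Phex) was higher and 4 lower as counted, and 0 and 4 with the trend removed, at 258 to 475 CPM in knockout and 523 to 784 CPM in control libraries. Sost and Fgf23 were at 0 in all knockout marrow libraries and Fgf23 at 0 in all control ones. Sost was hardly present in control marrow either, at 0.0301 ± 0.0262 CPM, and its change did not pass (-2.54 ± 2.13, adjusted p = 0.348). In GFP-positive bone, where Dlx3, Runx2 and Mef2c were higher as counted, 12 of 18 cartilage markers were higher and 3 lower (median 0.98), and in GFP-negative bone 3 were higher and 11 lower (median -0.58).

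The 10 B cell markers summed to 19.9 to 21.0 CPM in knockout and 7.86 to 9.19 CPM in control GFP-positive bone, to 75.0 to 81.0 CPM in knockout and 38.6 to 46.2 CPM in control GFP-negative bone, and to 287 to 378 CPM in knockout and 157 to 181 CPM in control marrow. Of 4 tested, 1 was higher and 0 lower in each subset as counted. That gene was Ebf1, a factor of early B cells that stromal cells also express, which made up most of each sum: it was at 346 ± 51.5 CPM in knockout and 166 ± 12.97 CPM in control libraries in marrow (1.06 ± 0.12, adjusted p = 7.16e-07; 0.51 ± 0.12, adjusted p = 0.00309 with the trend removed). Pax5 and Cd22, which define B cells, were at 0 in all marrow libraries of both genotypes, as was Igll1. The marrow of each genotype had a count for 7 of the 10 markers. The part of cell makeup in the values of the 7 factors was not tested. Myeloid markers summed to 9.27 to 12.2 CPM in knockout and 8.55 to 30.7 CPM in control marrow, and to at most 101 CPM in any library.

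Of 16 relatives of the factors by family, 12 passed the filter. As counted, GFP-positive bone had 7 higher and 2 lower (median 0.79), where 26% and 25.3% of all genes were called so. GFP-negative bone had 6 and 1 (median 0.81; 21.5% and 25.7% of all genes), and marrow 6 and 1 (median 0.45; 23.1% and 24.8%). With the trend removed the counts were 6 and 1, 3 and 1, and 3 and 1, where 20.5% and 21.9%, 17.4% and 20.4%, and 19% and 20.6% of all genes were called higher and lower. Cbfb, the partner that stabilises Runx2 on DNA, was at 49.5 ± 5.46 CPM in knockout and 122 ± 16.3 CPM in control libraries in marrow (-1.30 ± 0.10, adjusted p = 1.94e-08; -1.15 ± 0.10, adjusted p = 1.34e-07 with the trend removed). Runx1, known for blood formation and also present in stromal cells, was at 326 ± 43.3 CPM in knockout and 126 ± 21.8 CPM in control libraries in marrow (1.37 ± 0.18, adjusted p = 9.18e-06; 0.84 ± 0.19, adjusted p = 0.00163). Mef2a was at 139 ± 9.57 CPM in knockout and 42.6 ± 4.93 CPM in control libraries in GFP-positive bone (1.71 ± 0.15, adjusted p = 2.59e-08; 1.09 ± 0.14, adjusted p = 4.52e-06). Mef2d, a further Mef2 factor, was at 239.9 ± 9.09 CPM in knockout and 83.3 ± 2.79 CPM in control libraries in the same subset (1.53 ± 0.09, adjusted p = 6.86e-10; 0.94 ± 0.10, adjusted p = 4.50e-07).

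Of 34 known partners and regulators of the 7 factors, 20 were higher and 1 lower in GFP-positive bone, 21 and 2 in GFP-negative bone, and 15 and 2 in marrow, as counted, against the same shares of all genes (26% and 25.3%, 21.5% and 25.7%, and 23.1% and 24.8%). With the trend removed these were 14 and 5, 12 and 3, and 10 and 7, where all genes had 20.5% and 21.9%, 17.4% and 20.4%, and 19% and 20.6%. Nfatc1, which joins Sp7 in a complex on bone gene promoters, was at 1187 ± 91.1 CPM in knockout and 259.8 ± 28.7 CPM in control libraries in GFP-positive bone (2.19 ± 0.12, adjusted p = 1.09e-10; 1.78 ± 0.12, adjusted p = 3.27e-09 with the trend removed). Hdac5, a class IIa deacetylase that restrains Mef2c and Runx2, was at 70.6 ± 4.77 CPM in knockout and 23.4 ± 3.71 CPM in control libraries in GFP-positive bone (1.59 ± 0.13, adjusted p = 1.39e-08; 1.01 ± 0.12, adjusted p = 2.01e-06). Zfp521, a zinc-finger protein that restrains Runx2, was at 30.8 ± 1.86 CPM in knockout and 9.58 ± 2.69 CPM in control libraries in marrow (1.67 ± 0.17, adjusted p = 2.92e-07; 1.08 ± 0.17, adjusted p = 5.53e-05). Smurf1, a ubiquitin ligase that marks Runx2 for breakdown, was at 51.6 ± 5.14 CPM in knockout and 22.2 ± 3.41 CPM in control libraries in marrow (1.21 ± 0.14, adjusted p = 1.04e-06; 0.76 ± 0.14, adjusted p = 2.13e-04). Vdr, the vitamin D receptor, was at 284 ± 53.4 CPM in knockout and 92.6 ± 3.70 CPM in control libraries in GFP-negative bone (1.62 ± 0.11, adjusted p = 5.70e-09; 1.41 ± 0.12, adjusted p = 5.30e-08).

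Over the 18 libraries, Dlx5 and Dlx6 had Pearson r = 0.94 of log2 CPM (0.88 with the trend removed), and Sp7 and Dlx3 had 0.88 (0.88). Runx2 and Mef2c had 0.64, and 0.91 with the trend removed. These are descriptions over libraries that share subset and genotype, and no p is given. Among 9521 other genes with a mean of at least 5 CPM, the closest to Dlx3 was Sparc (r = 0.95 as counted and 0.95 with the trend removed), then Pls3 and Use1 (0.92 each). Sp7 was most like Fam167a (0.94 and 0.95), then Ccn4 and Eml1 (0.93 each). Dlx6 was most like Gpr27 (0.97 and 0.96), then Tspan7 (0.96) and Ctsk (0.95). Dlx5 was most like Slc36a2 (0.98), Git1 and Tdrp (0.97 each). Mef2c was most like Prrc1, Slc8a3 and Gpsm2 (0.98 each) and Runx2 most like Epha2 and Sqstm1 (0.96 each) and Trim44 (0.95). For these 3 factors the closest gene was another one with the trend removed: H2afy2 (0.97) for Dlx5, Rcn1 (0.99) for Mef2c and Rpl14 (0.98) for Runx2. Msx2, at low counts, had no r above 0.79, which it had with Pmepa1.

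Promoter sequence was at hand for Runx2, Msx2 and Mef2c, in 5 entries. The 250 bases before one start site of Runx2 are shown because Runx2 proteins are known to bind their own gene, and because it was the only 1 of the 5 to hold the letters TGTGGT that runt proteins prefer. Capitals mark the match, which reads on the opposite strand (RefSeq, GRCm38.p6, minus strand, written 5′ to 3′ along the gene).
Runx2, chr17:44814628-44814877: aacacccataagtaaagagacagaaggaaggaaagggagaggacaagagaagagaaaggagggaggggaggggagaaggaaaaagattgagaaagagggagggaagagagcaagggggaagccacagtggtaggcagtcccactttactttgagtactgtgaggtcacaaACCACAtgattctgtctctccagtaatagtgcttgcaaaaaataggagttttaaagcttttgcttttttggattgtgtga
Of 32851 promoter windows of the same length, 14.05% held TGTGGT on either strand. The letters TAATTA, a core that homeodomain proteins bind, were in the Msx2 window and in 1 of 3 Mef2c windows, and in 4.84% of all. A match of letters describes the sequence and shows no binding.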

How the data were processed

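RNA-seq counts of 18 libraries (6 groups of 3) were analysed. Per the file headers the authors deposited raw read counts per gene from featureCounts, with merged exon lengths; the submitters' processing notes list STAR, featureCounts, DESeq2 and the build mm10, with no versions. Per the labels' protocols, cDNA was made with SMART-Seq v4 and libraries with SMARTer ThruPLEX. Strand setting and treatment of reads with several matches are not given in the sources used here. Of 54446 gene IDs, 54409 matched a symbol of GENCODE M21, which gave coordinates and transcript lengths. The 7 factors and all lists were chosen with earlier results of these data known.

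Counts were fitted in edgeR 4.0.16 (R 4.3.3): 1 model of 6 group means over all libraries, filterByExpr (minimum count 10, minimum total 15), TMM, robust quasi-likelihood F-test, two-sided, Benjamini-Hochberg over 15516 genes in each of 12 comparisons, threshold 0.05. The SE is the log2 fold change divided by the root of F. CPM use TMM-scaled library sizes; errors are SD over 3 libraries. For the second reading, each library's log2 CPM deviation from the mean over 18 libraries was fitted by loess (span 0.5) on log2 length of the longest transcript and entered as an offset. Every factor was tested in every comparison; of other lists, genes named are among the 4 with the smallest p, and likeness uses the 3 highest correlations. The steps were tested on simulated data. No 2 libraries of a group agreed within sampling noise: a chi-square test of their counts, divided by its degrees of freedom, gave 14.9 to 55.9.

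Replicate numbers are shared by the groups. Deviations of same-number libraries from group means correlated over 0.1 in all 3 pairs for 5 of 6 pairs of subsets within a genotype (0.112 to 0.407 in those), but in 1 of 9 pairs between genotypes. The pairing thus rests on the data, and values with the number as a block are given where they change a call. Other alternatives were RLE size factors, library totals, no filter, DESeq2 1.42.0, the compared libraries alone, file lengths, and each library left out. Precision is limited by 3 libraries a group and 16443595 to 27160257 counts a library.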

Additional observations from a re-analysis of the deposited data

Results flagged for a closer look

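The knockout effect differed between subsets for 4 factors by a test of the difference itself (edgeR quasi-likelihood test, adjusted p under 0.05). As differences of log2 fold changes, GFP-positive bone minus marrow gave 0.833 for Runx2, 0.66 for Sp7, 2.33 for Dlx3 and 1.91 for Mef2c. GFP-negative bone minus marrow gave 0.733 for Runx2, 0.679 for Sp7, 1.49 for Dlx3 and 1.18 for Mef2c. GFP-positive minus GFP-negative bone gave 0.834 for Dlx3. The effect of Dlx3 was positive in GFP-positive bone and negative in marrow, each past the threshold.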

How the results depend on the processing

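Numbers called are of the 7 factors unless said otherwise. Removing the length trend turned the sign of 4 results into calls of the other sign: Runx2 (-0.49) and Dlx5 (0.36) in marrow, Dlx5 in GFP-positive bone (0.25) and Mef2c in GFP-negative bone (-0.56). With file lengths the values were Runx2 -0.33 and Dlx5 0.29 in marrow, Mef2c -0.74 in GFP-negative bone and, not past the threshold, Mef2c -0.26 in GFP-positive bone (adjusted p = 0.274), and with the replicate block and the trend removed -0.49, 0.36, 0.24 (Dlx5, GFP-positive bone) and -0.55 (Mef2c, GFP-negative bone). Knockout against control in GFP-negative bone had 1 call as counted, 2 with the trend removed, by RLE, DESeq2, the compared libraries alone, or the block with the trend removed, and 3 with file lengths. The knockout effect of GFP-positive minus GFP-negative bone had 1 call, 0 by RLE, library totals or no filter, 2 by DESeq2 or the block with the trend removed, and 0 to 2 with a library left out; over all genes it had 944 calls and 1420 by DESeq2.

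Library totals alone moved the median gene by up to -0.66 (knockout GFP-negative bone over marrow). They gave 5 calls in GFP-positive bone, with Sp7 at -0.29 (0.09 relative to the shift of -0.37), 2 for the effect of GFP-negative bone minus marrow (Runx2 and Sp7 lost, as also for GFP-positive bone minus marrow), 3 for control GFP-negative bone over marrow, and 3735 and 5676 calls over all genes for the effects of GFP-negative and GFP-positive bone minus marrow (1209 and 2853 under TMM). Dlx5 in knockout GFP-negative bone over marrow became -0.16 and Sp7 in knockout GFP-positive bone over marrow -0.12. Relative to the shift, no factor changed sign. A change of scaling moves all genes by nearly the same amount, so this outcome was fixed by subtraction of the shift. The share of calls that were higher went with it: 30.9% (50.7% under TMM) in GFP-positive bone, 30.8% (45.6% under TMM) in GFP-negative bone and 59.6% (48.2% under TMM) in marrow; for the effects, 13.5% (58.7% under TMM) and 10.9% (57.6% under TMM) against marrow and 62.2% (81.8% under TMM) between the bone subsets; for knockout subsets, 26.2% (48.5% under TMM) and 16.03% (48.2% under TMM) against marrow; for control subsets, 27.6% (53.7% under TMM) (GFP-negative bone over marrow) and 62.1% (45.5% under TMM) (GFP-positive over GFP-negative bone). RLE gave 70.7% (57.6% under TMM) and 70.7% (81.8% under TMM) for the effects of GFP-negative bone minus marrow and of GFP-positive minus GFP-negative bone. The cause of these changes was not tested.

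For knockout against control, the block was the replicate number across both genotypes, where 1 of 9 pairs correlated over 0.1. Such a block cannot test a pairing by animal. The replicate block changed no call of knockout against control. It gained 5: Msx2 in the effect of GFP-negative bone minus marrow (2.26) and in controls between the bone subsets (1.19) and for GFP-negative bone over marrow (-1.15), and control Runx2 for GFP-negative bone (0.28) and GFP-positive bone (0.22) over marrow, the last where the numbers do not pair. No other factor's call changed. Leaving out 1 library gained calls not given above: Mef2c in the effect of GFP-positive minus GFP-negative bone without knockout GFP-positive bone replicate 3 (0.91), Msx2 in that of GFP-negative bone minus marrow without control marrow replicate 2 (2.61), and, in controls, Msx2 between the bone subsets without GFP-negative bone replicate 3 (1.69), Msx2 for GFP-negative bone over marrow without that library (-1.72) or marrow replicate 2 (-1.50), and Runx2 over marrow without marrow replicate 2 (0.40 in GFP-negative and 0.33 in GFP-positive bone) or GFP-negative bone replicate 1 (0.40). Dlx6 and Msx2, at 5 to 140 counts, leave all but large changes undetectable.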
